A study of Rattus norvegicus with 8 samples.

Results

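Histone lysine methyltransferases add methyl groups to lysines of histones and histone lysine demethylases remove them. The set described here holds these enzymes together with their relatives that carry a SET or a JmjC domain, as expressed in H9c2 cells. Members were protein-coding genes of the deposited count table, chosen by symbol. The symbols start with Kdm, Kmt or Setd followed directly by a family number, or with Jmjd. The Ezh, Ehmt, Suv39h, Nsd and Smyd genes, and Jarid2, Dot1l, Hif1an and Riox1, were members too. Kdm3a was left out by the rule. The rule found 56 members among 40994 genes. It used only names and the protein-coding label, but the set, and the leaving out of Kdm3a, were proposed with results of the same comparison in view. All counts of changed members below are therefore a description and support nothing beyond it.

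Most methyltransferases of the set share the SET domain and take the methyl group from S-adenosylmethionine; Dot1l is the exception without a SET domain. Most demethylases, and the protein hydroxylases related to them, share the JmjC domain, which uses iron, oxygen and 2-oxoglutarate, whereas Kdm1a and Kdm1b are amine oxidases that use FAD. Methylation of histone H3 at lysine 4 (H3K4) marks promoters and enhancers, H3K36 and H3K79 methylation mark transcribed genes, and H3K9, H3K27 and H4K20 methylation are found in repressed or compacted chromatin. In mouse heart, Smyd1, Kmt2d and Ezh2 are known to be needed for normal development.

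H9c2 is a cell line of myoblasts derived from rat heart, and the cells carried no genetic modification. The tested libraries came from 4 samples of cells given OxPAPC, a mixture of oxidation products of a phosphatidylcholine, at 100 µg/ml for 6 h. The other 4 libraries came from cells given vehicle, whose composition the labels do not state. Libraries are named by the numbers of their titles, 2, 9, 16 and 23 for OxPAPC and 1, 8, 15 and 22 for vehicle. The labels give all 8 libraries 1 batch, and nothing in them ties the samples to separate cultures. The p-values therefore reflect the variation among these 8 samples, which may be technical.

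Total counts were 15.4 to 21.7 M per library, and members took 0.337 to 0.350% of them in OxPAPC libraries and 0.311 to 0.321% in vehicle libraries. Among markers of the labelled cell type, the myoblast regulators Myod1 and Myog and the markers Cdh15, Ncam1, Myh3 and Des were expressed. Their vehicle means ran from 12.0 CPM for Des to 448 CPM for Ncam1. Myf5 had 1 count, Pax7 2 counts and Myf6 37 counts over all libraries. Of cardiomyocyte markers, Tnnt2 averaged 113 ± 2.99 CPM in OxPAPC libraries and 128 ± 7.28 CPM in vehicle libraries and Gata4 9.83 ± 0.765 CPM in OxPAPC libraries and 8.58 ± 0.935 CPM in vehicle libraries (SD, n = 4 each), whereas Tbx5 was at 0 and Myh6 and Ryr2 had 3 counts each. The defining markers of endothelial cells, Cdh5 and Kdr, and of macrophages, Ptprc and Adgre1, were at 0. The other markers on these lists had at most 75 counts (Vwf, endothelial) and 122 counts (Cd68, macrophage) over all libraries. OxPAPC library 23 and vehicle library 15 stood apart from the rest of their groups in the longest transcripts. The median log2 level of 1500 protein-coding genes of at least 8000 bases, relative to the mean over libraries, was -0.05 in OxPAPC library 23 and -0.04 in vehicle library 15, against 0.01 to 0.03 in the other OxPAPC libraries and 0.00 to 0.04 in the other vehicle libraries. For Kdm5a, Kmt2a, Kmt2c, Kmt2d and Nsd1, whose lowest values in each group lie in these libraries, values without both are given below. Other members, among them Setd2, Setd1b, Kdm5b, Jmjd1c and Kdm3b, also had their lowest values in these libraries.

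The promoters of 5 members are shown because the results turn on these genes. Setd4 and Kmt5a had the largest increases with OxPAPC, Kdm2a and Kdm2b are paralogs that changed in opposite directions, and Ezh2 had the fall with the smallest adjusted p. Each sequence is the 250 bases before the RefSeq start of the gene in the GRCr8 assembly, 5′ to 3′ in the direction of transcription. Capitals mark matches, on either strand, to the GC box GGGCGG, the CCAAT box CCAAT or the hypoxia response element core ACGTG; the Kdm2b promoter has none.
Setd4 (chr11:46344025-46344274, minus strand): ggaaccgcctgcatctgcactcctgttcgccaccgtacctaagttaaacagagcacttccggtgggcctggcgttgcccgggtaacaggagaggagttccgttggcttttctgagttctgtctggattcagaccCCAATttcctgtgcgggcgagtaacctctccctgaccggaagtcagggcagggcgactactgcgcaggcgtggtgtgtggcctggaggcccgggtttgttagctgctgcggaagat
Kmt5a (chr12:37818027-37818276, minus strand): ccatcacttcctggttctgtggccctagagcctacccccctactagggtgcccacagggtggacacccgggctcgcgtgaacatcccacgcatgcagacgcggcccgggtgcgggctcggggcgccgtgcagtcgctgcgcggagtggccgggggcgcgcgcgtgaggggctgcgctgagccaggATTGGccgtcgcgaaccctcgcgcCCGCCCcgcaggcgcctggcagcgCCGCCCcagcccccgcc
Kdm2a (chr1:211110216-211110465, minus strand): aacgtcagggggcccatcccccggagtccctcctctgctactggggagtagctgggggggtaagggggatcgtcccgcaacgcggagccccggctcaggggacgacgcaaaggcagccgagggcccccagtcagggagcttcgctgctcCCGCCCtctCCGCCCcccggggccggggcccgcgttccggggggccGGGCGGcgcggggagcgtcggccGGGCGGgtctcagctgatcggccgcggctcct
Kdm2b (chr12:39235228-39235477, plus strand): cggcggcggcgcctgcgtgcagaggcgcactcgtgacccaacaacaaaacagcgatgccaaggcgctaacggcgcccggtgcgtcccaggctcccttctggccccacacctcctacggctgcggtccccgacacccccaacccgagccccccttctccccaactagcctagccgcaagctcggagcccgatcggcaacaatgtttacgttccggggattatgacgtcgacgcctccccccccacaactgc
Ezh2 (chr4:77687184-77687433, minus strand): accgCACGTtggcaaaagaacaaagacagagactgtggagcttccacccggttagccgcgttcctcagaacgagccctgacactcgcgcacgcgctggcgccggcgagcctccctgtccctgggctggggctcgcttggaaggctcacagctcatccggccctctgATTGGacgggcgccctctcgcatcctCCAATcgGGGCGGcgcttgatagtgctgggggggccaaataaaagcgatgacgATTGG
RefSeq promoters matched 46 of the 56 members. Members' promoters were rich in G and C, with a median of 64.8% against 52% for all 27457 RefSeq promoters. All promoters, here and below, were not restricted to protein-coding genes or to genes expressed in these cells, whereas members are protein-coding and mostly expressed. The GC box was in 73.9% of members' promoters and 32.4% of all promoters, and the CCAAT box in 41.3% and 34.3%. The antioxidant response element TGACNNNGC was in 10.9% of members' and 10.2% of all promoters, the core ACGTG in 23.9% and 16.9%, the AP-1 type element TGANTCA in 4.35% and 6.36%, and the cAMP response element TGACGTCA in 2.17% and 1.7%. The cAMP response element holds no match to ACGTG but shares the letters ACGT with it, and TGANTCA and TGACNNNGC can overlap by their first letters. The E2F type element TTTCCCGC was in the promoters of Jmjd7, Kmt5c and Nsd2, 6.52% of members against 0.856% of all promoters, and in none of the 18 promoters of members that rose or the 3 of members that fell. The other E2F type element, TTTGGCGC, was in no member's promoter and in 0.426% of all promoters. These are letter matches and not shown binding sites.

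With OxPAPC, 19 members rose and 3 fell among 53 that passed the filter on low counts, at an adjusted p under 0.05 in edgeR's quasi-likelihood test over 13206 genes. Adjusted p of the 22 called members ran from 1.67e-09 to 0.0418. Over all genes tested, 34.3% were called, 17.9% as higher and 16.4% as lower, and over members 41.5% were called. Of all called genes 52.3% were higher, and 40.2% with upper-quartile scaling, under which 14 members rose and 4 fell; with limma on log2(FPKM + 1) 11 members rose and 3 fell. The median log2 fold change was 0.10 over the tested members and 0.0022 over all genes tested. No member changed by 1.5-fold: the called values ran from 0.685-fold to 1.42-fold. In CPM (counts per M counts of the library, scaled with TMM factors), 16 members had every OxPAPC library above every vehicle library and 4 had every OxPAPC library below, where 16.8% and 15.6% of all genes tested did so. The 3 members outside the test were Kdm5d, at 0 counts in every library, where 3 counts over a group would be 0.0428 CPM in OxPAPC libraries and 0.0409 CPM in vehicle libraries, Kdm4d, with 10 counts over all libraries, and Kdm4dl2, with 1. Demethylases and other JmjC proteins had 14 members that rose and 1 that fell among 23 tested, with a median log2 fold change of 0.16. Methyltransferases and other SET proteins had 5 that rose and 2 that fell among 30 tested, with a median of 0.06. The difference between these classes was not tested. Counts of called members in each role below are to be read beside the same shares over all genes tested.

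**Figure D1:**
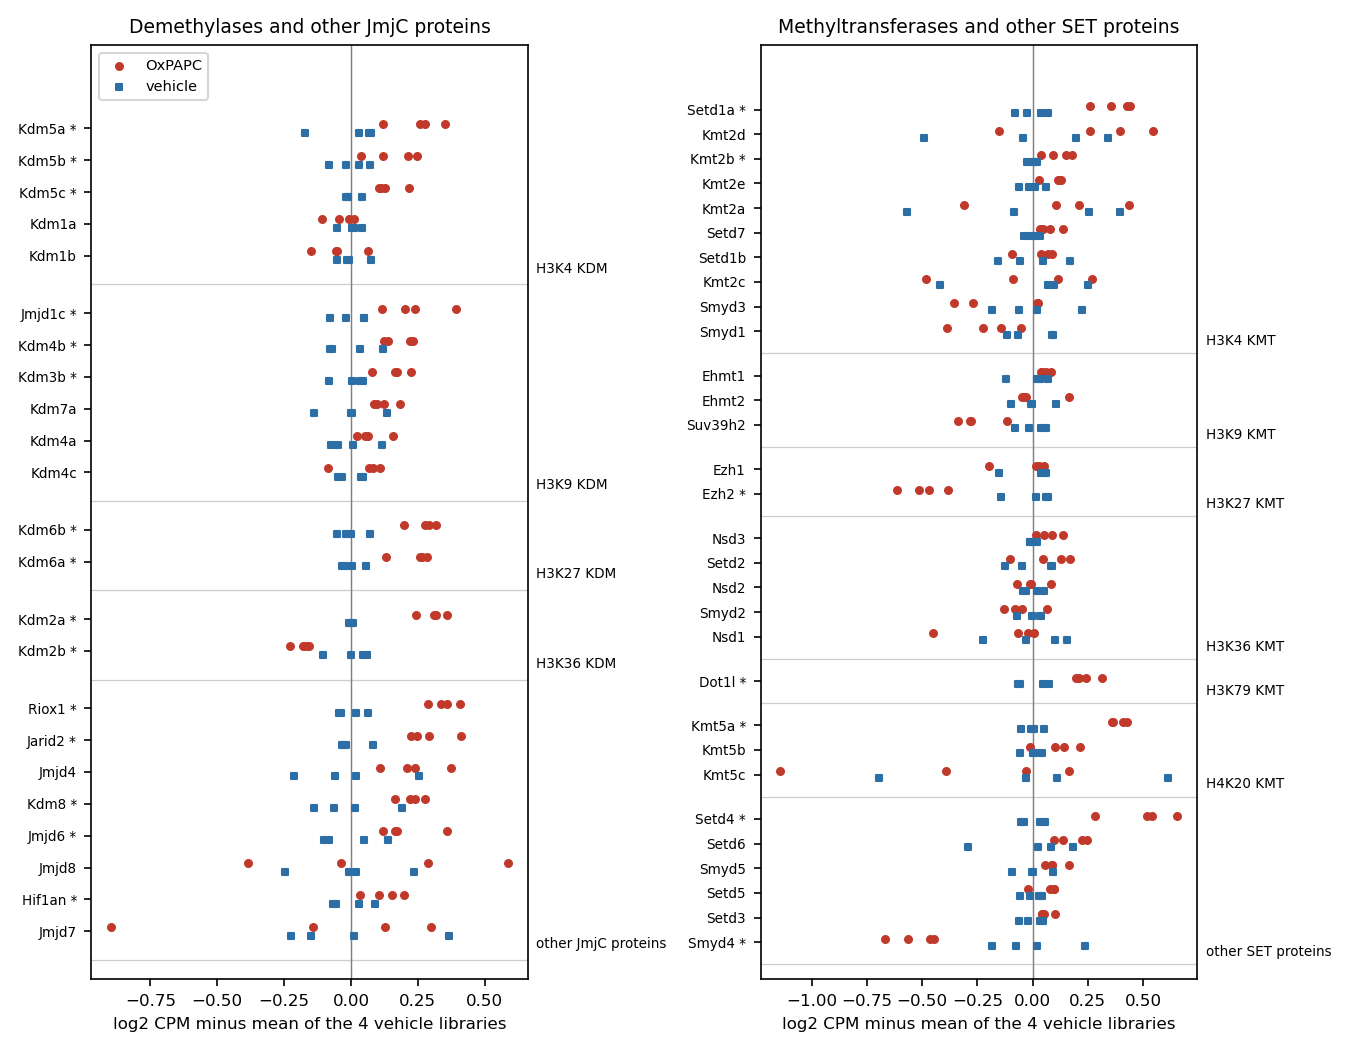
Log2 CPM of each tested member in every library, minus the mean log2 CPM of the 4 vehicle libraries, with OxPAPC libraries as red circles above and vehicle libraries as blue squares below; members are grouped by role and an asterisk marks the 22 called members. Among demethylases and JmjC proteins most red circles lie right of 0, with Kdm2b as the called exception, and among methyltransferases Ezh2 and Smyd4 lie left of 0.

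Summed levels of the first class did not overlap between groups, while those of the second did narrowly. Summed over members, demethylases and JmjC proteins gave 1312 to 1369 CPM in OxPAPC libraries and 1178 to 1223 CPM in vehicle libraries. Methyltransferases and SET proteins gave 2026 to 2179 CPM in OxPAPC libraries and 1851 to 2026 CPM in vehicle libraries. Kmt5a had the highest mean of the second class, 276 CPM in OxPAPC libraries and 210.6 CPM in vehicle libraries, followed by Kmt2d at 210 and 176 CPM. Without Kmt5a the second sum was 1746 to 1908 CPM in OxPAPC libraries and 1639 to 1808 CPM in vehicle libraries, with the ranges overlapping. In bulk RNA, fewer cells of a type and less RNA per cell cannot be told apart.

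Per transcript length, Kmt5a was the most abundant member, with a mean of 69.4 FPKM (fragments per kilobase and per M) in OxPAPC libraries and 54.0 FPKM in vehicle libraries. Kdm1a followed at 25.9 FPKM in OxPAPC libraries and 27.1 FPKM in vehicle libraries, then Smyd2 at 25.4 and 26.8, Setd3 at 24.8 and 24.3, Ehmt2 at 21.6 and 21.8, and Setd7 at 21.8 and 21.0 FPKM. In vehicle libraries the values of Kdm1a and Smyd2 overlapped, as did those of Setd3 and Ehmt2, and of Ehmt2 and Setd7. The lowest tested member was Suv39h2, an H3K9 methyltransferase of heterochromatin, at 0.876 FPKM in OxPAPC libraries and 1.06 FPKM in vehicle libraries.

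**Figure D2:**
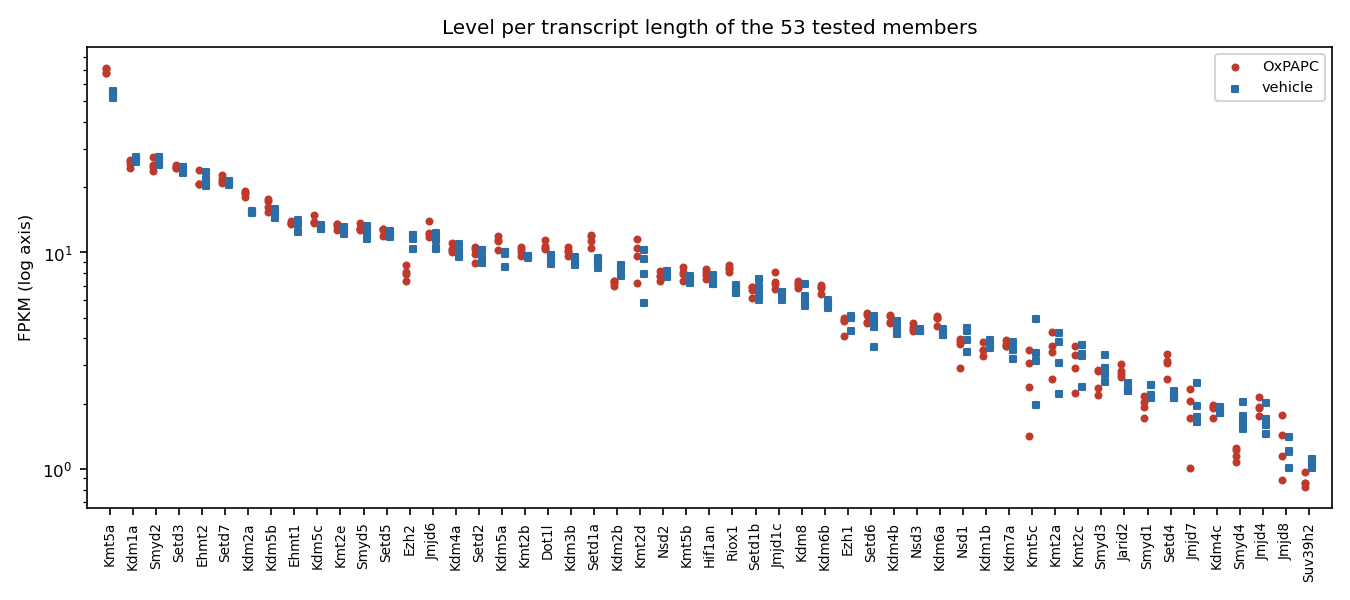
FPKM of the 53 tested members in each library on a log axis, OxPAPC as red circles left of vehicle as blue squares, ordered from high to low. Kmt5a lies alone at the top, with 67.6 to 71.4 FPKM in OxPAPC libraries and 51.9 to 55.7 FPKM in vehicle libraries, and Ezh2 is the most abundant member whose OxPAPC values all lie below its vehicle values.

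Of the demethylases of H3K4, the 3 expressed KDM5 enzymes, which remove di- and trimethylation, rose. Kdm5a (chromosome 4, 153565909 to 153643912 in the deposited coordinates) had 135.4, 126.7, 128.4 and 115.3 CPM in OxPAPC libraries 2, 9, 16 and 23, against 111.7, 111.2, 94.1 and 108.4 CPM in vehicle libraries 1, 8, 15 and 22. OxPAPC library 23 was the lowest of its group and vehicle library 15 the lowest of its own, and the groups did not overlap. The log2 fold change was 0.25 ± 0.06 (SE, here and below, n = 4 per group), and 0.23 without these libraries. Kdm5c had 152.4, 150.1, 162.2 and 150.9 CPM in OxPAPC libraries against 138.2, 143.5, 137.7 and 138.6 CPM in vehicle libraries, with no overlap and a log2 fold change of 0.14 ± 0.04. Its call was lost with limma on log2(FPKM + 1) and log2(FPKM + 0.1) (0.11 each), with an adjusted p of 0.000854 to 0.0604 over the 19 alternatives. Kdm5b ranged from 114.6 to 132.7 CPM in OxPAPC libraries and from 105.6 to 117.4 CPM in vehicle libraries. These groups overlapped, and the log2 fold change of 0.15 ± 0.05 no longer passed without OxPAPC library 2 (0.12) or 16 (0.13). The call was also lost in both FPKM fits. Kdm5b passed in 15 of the 19 alternatives, with an adjusted p of 0.000519 to 0.096 over all of them. The amine oxidases did not pass the test: Kdm1a, also known as LSD1, had 79.7, 76.3, 81.9 and 82.9 CPM in OxPAPC libraries against 84.7, 82.5, 79.3 and 82.9 CPM in vehicle libraries, a log2 fold change of -0.04 ± 0.04, and Kdm1b had -0.05 ± 0.08.

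Among H3K9 demethylases, 3 of 6 tested rose. Jmjd1c, a member of the KDM3 family, had 80.1, 71.8, 70.1 and 66.1 CPM in OxPAPC libraries against 63.0, 63.0, 57.7 and 60.2 CPM in vehicle libraries. The lowest OxPAPC library was above the highest vehicle library, and the log2 fold change was 0.24 ± 0.05. Jmjd1c overlaps Reep3 on the opposite strand over 353 bases, and Reep3 had the same log2 fold change of 0.24 and the use of strand in counting is unknown. Kdm3b, which removes mono- and dimethylation of H3K9, had 77.3 to 85.7 CPM in OxPAPC libraries and 69.2 to 75.6 CPM in vehicle libraries (0.16 ± 0.04), and its call was lost in the same FPKM fits (0.12 and 0.13), with an adjusted p of 0.000753 to 0.0634 over the alternatives. Kdm4b, which removes trimethylation of H3K9 and H3K36, had 37.0 to 39.9 CPM in OxPAPC libraries and 32.1 to 36.9 CPM in vehicle libraries. Its log2 fold change of 0.18 ± 0.06 no longer passed without vehicle library 1 or 22 (0.15 each) or without OxPAPC library 9 (0.16). The call was also lost with upper-quartile factors and in both FPKM fits. Kdm4b passed in 13 of the 19 alternatives, with an adjusted p of 0.00646 to 0.114 over all of them.

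The rest of the H3K9 demethylases did not pass. Kdm4a, the most abundant of them per length, had 73.9, 74.4, 72.3 and 79.4 CPM in OxPAPC libraries against 67.6, 71.6, 77.2 and 68.9 CPM in vehicle libraries. The groups overlapped, since vehicle library 15 was higher than 3 OxPAPC libraries, and the log2 fold change was 0.07 ± 0.05. Kdm4c had 0.05 ± 0.07. Kdm7a, which removes dimethylation of H3K9 and H3K27, had 0.12 ± 0.06 and passed without vehicle library 1 (0.17), with an adjusted p of 0.031 to 0.351 over the alternatives. Kdm3a, the KDM3 enzyme left out by the rule, averaged 42.7 ± 2.68 CPM in OxPAPC libraries and 32.1 ± 2.05 CPM in vehicle libraries (SD), a log2 fold change of 0.41 ± 0.06.

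Both KDM6 enzymes, the demethylases of di- and trimethylated H3K27, rose. Kdm6b, known as JMJD3, had 63.2, 68.7, 67.4 and 66.7 CPM in OxPAPC libraries against 53.2, 57.8, 54.4 and 55.0 CPM in vehicle libraries. The groups did not overlap, and the log2 fold change was 0.27 ± 0.05. Kdm6a, known as UTX and encoded on chromosome X, had 28.2, 28.1, 28.6 and 25.8 CPM in OxPAPC libraries against 23.6, 23.1, 22.96 and 24.4 CPM in vehicle libraries, a log2 fold change of 0.23 ± 0.06. Its groups did not overlap either, OxPAPC library 23 being the closest to the vehicle libraries.

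The H3K36 demethylases Kdm2a and Kdm2b moved in opposite directions. These paralogs have a JmjC domain beside a CXXC zinc finger that binds unmethylated CpG, and Kdm2b is also known as a subunit of a variant Polycomb repressive complex. Kdm2a (chromosome 1, 201612427 to 201682359) had 181.0, 176.2, 175.3 and 167.4 CPM in OxPAPC libraries against 140.6, 141.2, 141.2 and 142.0 CPM in vehicle libraries. Its vehicle libraries lay within a narrow range, all below the OxPAPC libraries, and it rose by 0.31 ± 0.03 on the log2 scale. Kdm2b (chromosome 12, 33566530 to 33701366) had 60.0, 62.1, 63.1 and 62.6 CPM in OxPAPC libraries against 70.3, 73.4, 65.4 and 72.6 CPM in vehicle libraries. Every OxPAPC library was below every vehicle library, vehicle library 15 being the nearest, and the log2 fold change was -0.18 ± 0.04. The ratio of Kdm2a to Kdm2b, in FPKM, was 2.76, 2.60, 2.54 and 2.45 in OxPAPC libraries against 1.83, 1.76, 1.98 and 1.79 in vehicle libraries, with no overlap. The long noncoding RNA Lrap overlaps Kdm2b on the opposite strand over 7810 bases and its own value was -0.13 on the log2 scale (edgeR adjusted p = 0.11).

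Among JmjC proteins not counted as histone demethylases here, 5 of 8 rose. Riox1, a ribosomal oxygenase that hydroxylates a histidine, had 23.1, 22.03, 21.3 and 22.4 CPM in OxPAPC libraries against 16.9, 17.0, 18.2 and 17.6 CPM in vehicle libraries. The groups were well apart, with a log2 fold change of 0.35 ± 0.07. Riox1 lies within Heatr4 on the opposite strand, which had 192 counts in all libraries against 2829 for Riox1. Jarid2, an accessory subunit of Polycomb repressive complex PRC2 without demethylase activity, had 20.98, 23.9, 21.3 and 21.96 CPM in OxPAPC libraries against 17.7, 17.6, 18.99 and 17.5 CPM in vehicle libraries. It rose by 0.30 ± 0.07 on the log2 scale, with no overlap between groups, and by 0.19 on the log2(FPKM + 1) scale, which understates the change of low genes.

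The other 3 JmjC proteins that rose had overlapping groups. Jmjd6, a lysyl hydroxylase of splicing factors and the most abundant of these proteins per length, had 21.4, 22.1, 22.2 and 25.2 CPM in OxPAPC libraries against 20.3, 18.6, 21.7 and 18.3 CPM in vehicle libraries, a log2 fold change of 0.21 ± 0.07. Kdm8, known as JMJD5, had 16.9 to 18.3 CPM in OxPAPC libraries and 13.7 to 17.2 CPM in vehicle libraries (0.22 ± 0.08). Hif1an, the asparaginyl hydroxylase FIH that modifies the alpha subunits of hypoxia-inducible factor, had 87.8, 84.9, 82.2 and 78.2 CPM in OxPAPC libraries against 81.3, 73.5, 73.0 and 78.1 CPM in vehicle libraries. With a log2 fold change of 0.12 ± 0.05 and an adjusted p of 0.0418 it was the member just inside the threshold. Each of these 3 lost its call in DESeq2, with upper-quartile factors, with library totals and in both FPKM fits. Of the 19 alternatives, Jmjd6 passed in 8, Kdm8 in 7 and Hif1an in 7. The adjusted p ranged from 0.0148 to 0.141 for Jmjd6, 0.01 to 0.122 for Kdm8 and 0.0112 to 0.224 for Hif1an. Each also lost its call when any of several single libraries was left out. Jmjd6 lost it without OxPAPC library 9, 16 or 23 or vehicle library 8 or 22 (log2 fold change 0.15 to 0.22), Kdm8 without OxPAPC library 2, 9 or 23 or vehicle library 1, 8 or 22 (0.18 to 0.22), and Hif1an without OxPAPC library 2, 9 or 16 or vehicle library 8, 15 or 22 (0.10 to 0.13). Jmjd4, a hydroxylase of a translation termination factor, had 0.23 ± 0.12 and passed without vehicle library 15 (0.32), with an adjusted p of 0.0471 to 0.34 over the alternatives. Jmjd7 had -0.08 ± 0.22 and Jmjd8 0.16 ± 0.20, both at under 100 counts in every library.

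**Figure D3:**
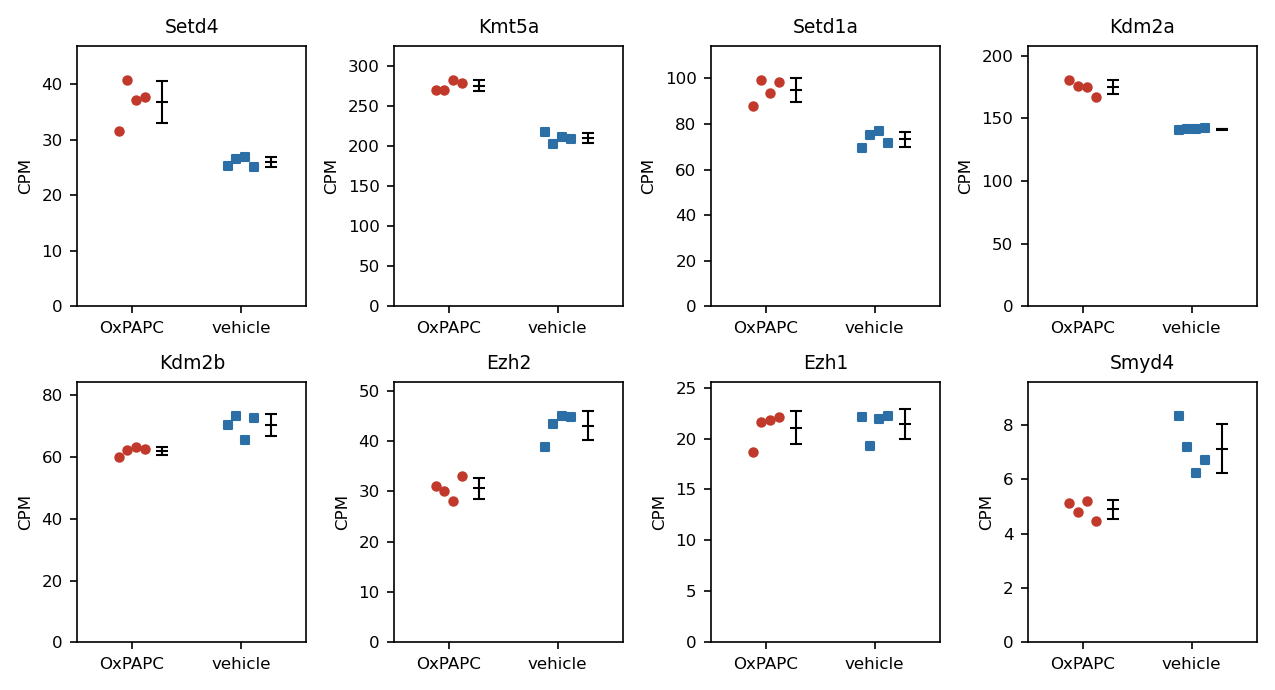
CPM of 8 members in each library, OxPAPC as red circles left of vehicle as blue squares in the order of the library numbers, with the group mean and SD as black bars and axes from 0. Setd4, Kmt5a, Setd1a and Kdm2a lie higher in OxPAPC libraries, Kdm2b, Ezh2 and Smyd4 lower, and Ezh1 averages 21.1 CPM in OxPAPC libraries and 21.4 CPM in vehicle libraries.

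On the methyltransferase side, Kmt5a (chromosome 12, 32139353 to 32167777), which monomethylates H4K20, had the smallest adjusted p of all members. It had 270.6, 270.4, 283.5 and 279.6 CPM in OxPAPC libraries against 218.1, 203.1, 211.6 and 209.8 CPM in vehicle libraries. The groups averaged 276 ± 6.58 CPM in OxPAPC libraries and 210.6 ± 6.17 CPM in vehicle libraries (SD), with no overlap and a log2 fold change of 0.39 ± 0.03. The enzymes that add further methyl groups to H4K20 did not pass. Kmt5b had 0.11 ± 0.05, and passed without OxPAPC library 16 (0.15) with an adjusted p of 0.033 to 0.319 over the alternatives. Kmt5c varied widely, from 5.73 to 14.2 CPM in OxPAPC libraries and from 7.81 to 19.3 CPM in vehicle libraries, with a log2 fold change of -0.33 ± 0.36.

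Of 10 H3K4 methyltransferases, 2 rose. Setd1a (chromosome 1, 182386197 to 182411695), a promoter H3K4 methyltransferase, had 87.7, 99.5, 93.6 and 98.4 CPM in OxPAPC libraries against 69.3, 75.1, 76.7 and 71.8 CPM in vehicle libraries. The groups did not overlap, and the log2 fold change was 0.37 ± 0.05. Its paralog Setd1b had 55.6 to 63.2 CPM in OxPAPC libraries and 53.2 to 66.8 CPM in vehicle libraries and did not pass (0.02 ± 0.06). The FPKM ratio of Setd1a to Setd1b overlapped between groups, at 1.51 to 1.93 in OxPAPC libraries and 1.23 to 1.57 in vehicle libraries. Kmt2b, known as MLL2, had 82.4 to 90.9 CPM in OxPAPC libraries and 78.9 to 81.3 CPM in vehicle libraries (0.12 ± 0.04). Its call was lost without OxPAPC library 2 (0.09) or 9 (0.10) or vehicle library 1 (0.12) or 22 (0.11). The call was also lost with upper-quartile factors, DESeq2, no filter beyond 1 count and both FPKM fits. Kmt2b passed in 10 of the 19 alternatives, with an adjusted p of 0.00896 to 0.163 over all of them.

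The other KMT2 enzymes with very long transcripts moved with the libraries that stood apart. Kmt2d, which monomethylates H3K4 at enhancers, had 251.3, 227.2, 206.6 and 155.4 CPM in OxPAPC libraries against 218.4, 197.6, 122.6 and 167.3 CPM in vehicle libraries. OxPAPC library 23 and vehicle library 15 were the lowest of their groups, and the log2 fold change was 0.25 ± 0.23. It was 0.23 without both libraries, 0.37 without OxPAPC library 23 alone and 0.11 without vehicle library 15 alone. Kmt2a had 0.08 ± 0.25, with 0.05 without both, 0.21 without OxPAPC library 23 and -0.08 without vehicle library 15. Kmt2c had -0.05 ± 0.21, with -0.04 without both, 0.08 without OxPAPC library 23 and -0.17 without vehicle library 15. The H3K36 methyltransferase Nsd1 had -0.13 ± 0.13, with -0.11 without both, -0.03 without OxPAPC library 23 and -0.21 without vehicle library 15. Between the enhancer enzymes Kmt2d and Kmt2c, whose lengths of 21427 and 21227 bases are close, the FPKM ratio was 3.12, 3.13, 3.29 and 3.25 in OxPAPC libraries against 2.74, 2.81, 2.45 and 2.34 in vehicle libraries, with no overlap. Neither gene passed the test, and most of the ratios taken between relatives in the set overlapped between groups. In OxPAPC library 23 the log2 CPM was below the mean of the other OxPAPC libraries by 0.56 for Kmt2a, 0.55 for Kmt2d, 0.58 for Kmt2c and 0.43 for Nsd1. In vehicle library 15 it was below the mean of the other vehicle libraries by 0.76, 0.66, 0.56 and 0.30 for the same genes. The other 49 tested members differed by -0.22 to 0.69 in OxPAPC library 23 and by -0.24 to 0.82 in vehicle library 15. Some of them are long too. In OxPAPC library 23 and vehicle library 15, Nsd3 (15036 bases) differed by -0.08 and -0.01. Nsd2 (13444 bases) differed by -0.02 and -0.06, and Dot1l (12550 bases) by 0.10 and 0.10. Without both libraries 18 members rose and 3 fell, and with the long-transcript level as a covariate 21 rose and 4 fell; both fits were chosen after seeing the data.

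**Figure D4:**
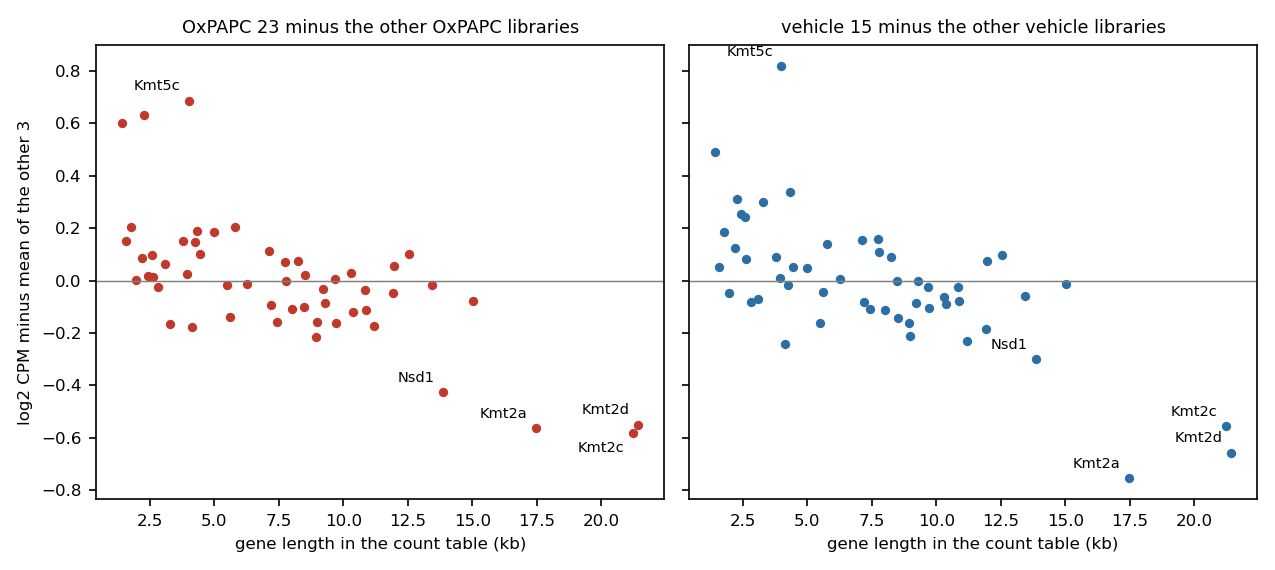
Log2 CPM of each tested member in OxPAPC library 23 minus the mean of the other 3 OxPAPC libraries (left), and in vehicle library 15 minus the mean of the other 3 vehicle libraries (right), against gene length in kb. Kmt2a, Kmt2c, Kmt2d and Nsd1 lie lowest in both panels, and Kmt5c, at 4005 bases, lies highest.

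The remaining H3K4 methyltransferases did not pass. Kmt2e had 0.10 ± 0.04, and passed without OxPAPC library 23 or vehicle library 1 (0.12 each), with an adjusted p of 0.0188 to 0.242 over the alternatives. Setd7, which monomethylates H3K4 and other proteins, had 42.2, 42.5, 45.3 and 43.4 CPM in OxPAPC libraries against 42.1, 40.8, 40.1 and 41.6 CPM in vehicle libraries. The groups did not overlap, by a margin of under 1 CPM, and the log2 fold change was 0.08 ± 0.05. Smyd1, a SET protein of striated muscle, was the member just outside the threshold, with 18.9, 15.98, 20.2 and 17.9 CPM in OxPAPC libraries against 22.2, 22.3, 19.96 and 19.3 CPM in vehicle libraries. Its log2 fold change was -0.21 ± 0.08 (adjusted p = 0.0513). Smyd1 passed in 9 of the 19 alternatives, with an adjusted p of 0.0224 to 0.198 over all of them. Among these 9 were RLE factors, upper-quartile factors, library totals, limma-voom and no filter beyond 1 count, but not DESeq2 or the FPKM fits. It also passed without OxPAPC library 16 (-0.26) or vehicle library 15 (-0.23) or 22 (-0.24). Smyd3 had -0.15 ± 0.12.

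Of the catalytic subunits of PRC2, which methylates H3K27, Ezh2 fell and Ezh1 did not pass. Ezh2 (chromosome 4, 76624399 to 76687362), the subunit that prevails in dividing cells, had 31.1, 30.1, 28.1 and 33.0 CPM in OxPAPC libraries against 38.9, 43.4, 45.1 and 44.8 CPM in vehicle libraries. The means were 30.6 ± 2.03 CPM in OxPAPC libraries and 43.1 ± 2.86 CPM in vehicle libraries (SD), with no overlap and a log2 fold change of -0.49 ± 0.06. Ezh1 had 18.6, 21.6, 21.8 and 22.2 CPM in OxPAPC libraries against 22.2, 19.2, 21.9 and 22.3 CPM in vehicle libraries (-0.02 ± 0.07). The FPKM ratio of Ezh1 to Ezh2 was 0.509, 0.608, 0.657 and 0.569 in OxPAPC libraries against 0.483, 0.375, 0.413 and 0.421 in vehicle libraries, with no overlap. Of 10 markers of cycling cells, a list added after seeing the data, 8 fell, 0 rose and 2, Mki67 and Pcna, did not pass. Their summed level was 636 to 691 CPM in OxPAPC libraries and 875 to 966 CPM in vehicle libraries, and their median log2 fold change was -0.60; their part in the Ezh2 result was not tested. Cul1 overlaps Ezh2 on the opposite strand over 1432 bases and rose by 0.15 on the log2 scale (edgeR adjusted p = 0.00141).

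Dot1l, the methyltransferase of H3K79, had 132.7, 131.5, 135.7 and 142.9 CPM in OxPAPC libraries against 109.6, 118.7, 120.9 and 110.5 CPM in vehicle libraries. It rose by 0.24 ± 0.04 on the log2 scale, with no overlap between groups. Plekhj1, which overlaps it on the opposite strand over 2706 bases, was at -0.17 on the log2 scale (edgeR adjusted p = 0.142). None of the 8 methyltransferases of H3K9 or H3K36 passed in edgeR's test or in any of the 19 alternatives, DESeq2 and limma included, and 0 had an unadjusted p under 0.05 in edgeR's test. Ehmt2, known as G9a, had 121.8, 120.4, 120.8 and 139.4 CPM in OxPAPC libraries against 116.3, 123.6, 133.7 and 124.1 CPM in vehicle libraries (0.01 ± 0.05), and its partner Ehmt1 had 0.06 ± 0.04. Suv39h2 ranged from 4.15 to 4.85 CPM in OxPAPC libraries and from 4.96 to 5.48 CPM in vehicle libraries, which did not overlap, with a log2 fold change of -0.25 ± 0.13. Setd2, the H3K36 trimethylase, had 0.06 ± 0.06, and the NSD enzymes Nsd1, Nsd2 and Nsd3 had -0.13 ± 0.13, 0.00 ± 0.04 and 0.07 ± 0.04. Smyd2, the most abundant H3K36 methyltransferase per length, had 38.1, 40.3, 39.4 and 43.6 CPM in OxPAPC libraries against 39.7, 41.6, 42.9 and 42.7 CPM in vehicle libraries (-0.05 ± 0.05).

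The SET proteins outside these groups held the members with the largest changes in each direction. Setd4 (chromosome 11, 32829509 to 32859162) had 31.6, 40.9, 37.1 and 37.7 CPM in OxPAPC libraries against 25.3, 26.6, 26.98 and 25.1 CPM in vehicle libraries. OxPAPC library 2 was the lowest of its group and still above every vehicle library. The means were 36.8 ± 3.86 CPM in OxPAPC libraries and 26.0 ± 0.946 CPM in vehicle libraries (SD), a log2 fold change of 0.51 ± 0.07, and of 0.34 on the log2(FPKM + 1) scale. Smyd4, of the SET and MYND domain family, had 5.13, 4.78, 5.20 and 4.45 CPM in OxPAPC libraries against 8.34, 7.18, 6.24 and 6.72 CPM in vehicle libraries. It fell by 0.55 ± 0.13 on the log2 scale, with 862 counts in all libraries and no overlap, and by 0.33 on the log2(FPKM + 1) scale. Setd3, which methylates a histidine of actin, had 73.1, 70.2, 70.5 and 70.1 CPM in OxPAPC libraries against 70.3, 67.2, 65.3 and 69.7 CPM in vehicle libraries (0.06 ± 0.04). Setd5 had 0.06 ± 0.04, Setd6, which methylates the NF-κB subunit RelA, 0.18 ± 0.10, and Smyd5 0.10 ± 0.06; none of the 4 passed.

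**Figure D5:**
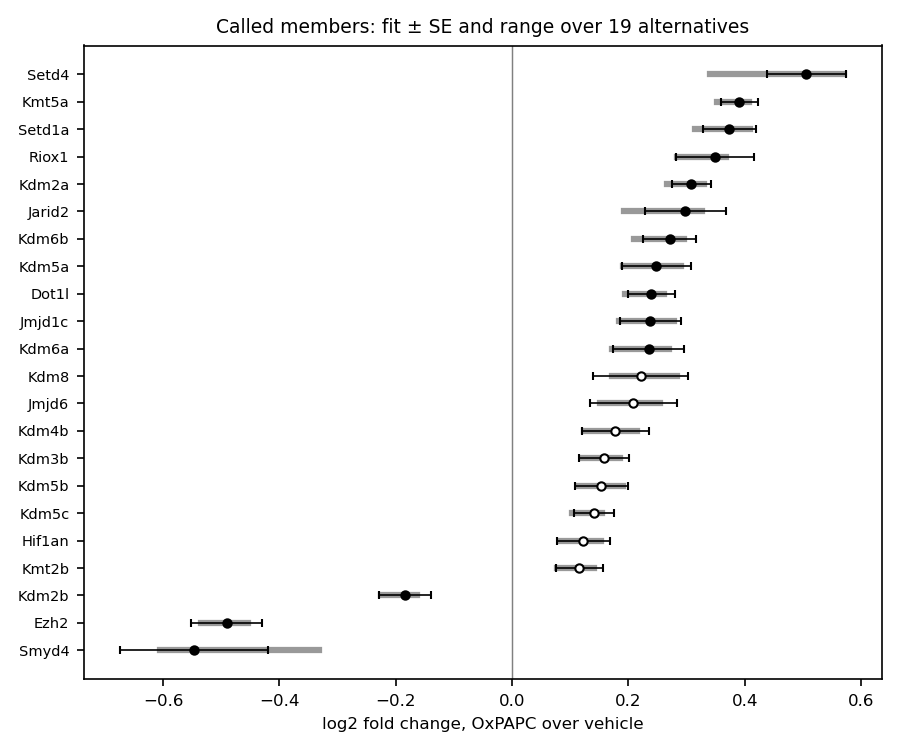
Log2 fold change of OxPAPC over vehicle for the 22 called members, with SE as black bars and the range over 19 alternative fits as grey bars. Filled circles mark the 14 members called in every alternative, 11 higher and 3 lower, and open circles the 8 that lost the call in at least 1; no range crosses 0.

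Members were long. Their median gene length was 7436 bases over the 53 tested, against 3374.5 bases over all tested protein-coding genes. Of the 24 members of at least 8000 bases, 11 rose and 1 fell, and of the 29 shorter ones 8 rose and 2 fell. Over the 1500 protein-coding genes of at least 8000 bases, 280 rose and 255 fell.

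Genes that work with the members were followed as lists chosen with earlier results of these data known. Over all genes tested, 17.9% rose and 16.4% fell. Counts for these lists and those below are to be read beside these shares and describe the lists only. Of 10 PRC2 partners, 1 rose and 1 fell: Phf1, an accessory subunit that binds H3K36 methylation, rose by 0.42 ± 0.15 on the log2 scale (edgeR adjusted p = 0.0369), and its relative Phf19 fell by 0.34 ± 0.12 (edgeR adjusted p = 0.0353). The core subunits Eed (-0.02 ± 0.06) and Suz12 (-0.05 ± 0.04) did not pass. Of 12 subunits of COMPASS, the complex of the H3K4 methyltransferases, the shared scaffold subunits Wdr5 (0.16 ± 0.04, edgeR adjusted p = 0.00536) and Rbbp5 (0.13 ± 0.05, edgeR adjusted p = 0.0334) rose and none fell. Of 10 genes of the LSD1 corepressor complex, 1 rose and 2 fell, with Rcor2 at -0.43 ± 0.10 (edgeR adjusted p = 0.00149) and the deacetylase Hdac1 at -0.14 ± 0.04 (edgeR adjusted p = 0.0124). Medians of the log2 fold change were 0.01 for PRC2 partners, 0.00 for COMPASS subunits and -0.05 for LSD1 partners, against 0.0022 over all genes.

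Among 13 tested histone lysine methyltransferases and demethylases outside the rule, 1 rose and 1 fell, with a median of 0.01. These were the PR domain proteins Prdm2 (0.35 ± 0.05, edgeR adjusted p = 5.26e-06) and Mecom (-0.75 ± 0.10, edgeR adjusted p = 4.17e-06). Of 15 tested dioxygenases that use 2-oxoglutarate but have no place in the set, 6 rose and 3 fell, with a median of 0.08. The collagen lysyl hydroxylase Plod1 rose (0.22 ± 0.03, edgeR adjusted p = 2.61e-05) and the RNA demethylase Fto fell (-0.24 ± 0.04, edgeR adjusted p = 5.44e-05). Of 9 tested genes on the arginine methyltransferase list, 1 rose, Prmt3 (0.35 ± 0.05, edgeR adjusted p = 1.26e-05), and 1 fell, Carm1 (-0.14 ± 0.05, edgeR adjusted p = 0.028), with a median of 0.04.

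Of 10 tested genes on a list for supply and use of the methyl donor, 3 rose and none fell, with a median of 0.04. The list also holds relatives of such enzymes. Ahcyl1, a relative of the hydrolase of S-adenosylhomocysteine, rose by 0.17 ± 0.03 (edgeR adjusted p = 0.000112). Of 11 tested HP1 and chromodomain or MBT readers of histone methylation, 3 rose and 4 fell, with a median of -0.04. The HP1 protein Cbx3 fell by 0.25 ± 0.04 (edgeR adjusted p = 8.75e-05) and L3mbtl2, a reader of the MBT family, rose by 0.24 ± 0.05 (edgeR adjusted p = 0.00166).

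Marker genes of the cell types were set beside the members. Their counts, too, are to be read beside the 17.9% that rose and 16.4% that fell over all genes tested. Of 6 tested myoblast markers 1 rose and 3 fell, and their summed level was 854 to 889 CPM in OxPAPC libraries and 973 to 1030 CPM in vehicle libraries; Myog, a regulator of myogenic differentiation, fell by 1.25 ± 0.05 on the log2 scale and Myod1 rose by 0.13 ± 0.04. Of 7 tested fibroblast markers 0 rose and 3 fell, with sums of 87398 to 92279 CPM in OxPAPC libraries and 90345 to 94771 CPM in vehicle libraries. Of 4 tested cardiomyocyte markers 0 rose and 1 fell, Tnnt2 (-0.18 ± 0.04), with sums of 122.6 to 130.7 CPM in OxPAPC libraries and 133 to 149 CPM in vehicle libraries. Endothelial markers summed to 0.466 to 1.77 CPM in OxPAPC libraries and 0.51 to 1.69 CPM in vehicle libraries, and macrophage markers to 1.53 to 2.10 CPM in OxPAPC libraries and 1.25 to 1.69 CPM in vehicle libraries, with none of their tested genes past the threshold. The part of these markers in the members' results was not tested.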

How the data were processed

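The authors deposited read counts per gene, whole numbers not normalized, and FPKM values for the same genes; each FPKM equalled the count per kilobase and per M counts times 1 factor per library of 0.987 to 1.02. The submitters' processing notes name featureCounts 1.5.0-p3, HISAT2 2.0.5 and StringTie 1.3.3b, with no roles. Per the labels' protocols, directional and non-directional libraries were made, so the use of strand in counting is unknown. No genome build is given in the sources used here, and gene coordinates were taken as deposited with the counts, with chromosome numbers through the gene identifiers of RefSeq (GRCr8), which held 91.9% of them. Both files lack the content of 1 line, emptied beforehand for this work. Promoter sequences are from RefSeq (GRCr8) and were read as 250 bases before the start. A Suv39h1 row was labelled a pseudogene (6 counts) and is no member.

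Genes were kept by filterByExpr (minimum count 10), scaled by TMM (factors 0.976 to 1.03) and tested with edgeR 4.0.16 (quasi-likelihood, robust) in R 4.3.3, with Benjamini-Hochberg adjustment over 13206 genes; the biological coefficient of variation was 5.79%. SE was the ratio of the log2 fold change to the root of the F statistic. The fit was tested on simulated data. Alternatives used DESeq2 1.42.0, limma 3.58.1, other scalings and filters, and left out single libraries. The floor given for Kdm5d covers counting error only, whereas SE and SD include variation between libraries. Replicates differed by more than sampling noise (chi-square per degree of freedom 2.23 to 9.50 within groups and 23.1 to 35.0 between groups).

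Members and lists were chosen with earlier results of these data known. Values in every library are given for the 10 members that rose and up to 10 that fell with the largest change. They are also given for the member with the highest FPKM in each role, and those just inside and outside the threshold. Kdm5c, Kdm6a, Ezh1 and Kmt2d were added after their values were seen. FPKM ratios were taken between relatives in several families of the set, and only some are given. Most of these ratios overlapped between groups, and no such ratio was computed for genes outside the set. Each list names the 2 genes with the smallest adjusted p among those called, except that 1 gene of the methyl donor list is not reported here; the core subunits Eed and Suz12 and the markers named were added after their values were seen.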

Additional observations from a re-analysis of the deposited data

Results flagged for a closer look

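In 7 of 106 groups of 4 libraries, the CPM of a member in 1 library lay far from the other 3 relative to the range of the group; chance gives about 1 in 20 such groups. Ezh1 had 18.6 CPM in OxPAPC library 2, against 21.6 to 22.2 CPM in the other OxPAPC libraries, and 19.2 CPM in vehicle library 8, against 21.9 to 22.3 CPM in the other vehicle libraries. Kdm5c had 143.5 CPM in vehicle library 8, against 137.7 to 138.6 CPM in the others. Jarid2 had 18.99 CPM in vehicle library 15, against 17.5 to 17.7 CPM in the others. Setd3 had 73.1 CPM in OxPAPC library 2, against 70.1 to 70.5 CPM in the others. In OxPAPC library 23, Kmt2e had 91.4 CPM, against 97.1 to 98.0 CPM in the others, and Ehmt2 had 139.4 CPM, against 120.4 to 121.8 CPM in the others.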

How the results depend on the processing

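Over 19 alternatives, 14 of the 22 called members passed in every one and 8 lost the call in at least 1; none of the 22 changed direction. Of the 31 members that did not pass, 5 passed in at least 1 alternative. With limma on log2(FPKM + 1) and on log2(FPKM + 0.1), 11 members rose and 3 fell. Leaving out 1 library at a time gave 14 to 19 members that rose and 3 to 4 that fell, and 2060 to 2336 genes higher and 1853 to 2082 lower over all genes. With upper-quartile factors 14 members rose and 4 fell, and 40.2% of called genes were higher, against 52.3% with TMM; over all genes the median log2 value was then -0.035, against 0.0022.

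Of the members that did not pass, 8 changed sign in at least 1 alternative; the cause was not tested. With 1 library left out, log2 fold changes ran from -0.0676 to 0.0350 for Ezh1, -0.0306 to 0.0227 for Nsd2, -0.0768 to 0.217 for Kmt2a, -0.169 to 0.0842 for Kmt2c, -0.0359 to 0.0791 for Setd1b, -0.0402 to 0.0483 for Ehmt2, -0.247 to 0.0921 for Jmjd7 and -0.0271 to 0.293 for Jmjd8. Nsd2 gave -0.00278 with RLE factors, -0.0372 with upper-quartile factors, -0.0118 with library totals, -0.00253 with DESeq2, -0.0151 with no filter beyond 1 count, -0.0247 with log2(FPKM + 1), -0.0275 with log2(FPKM + 0.1) and -0.0105 without OxPAPC 23 and vehicle 15. Setd1b gave -0.0199 with upper-quartile factors, and -0.00215 and -0.00207 with these FPKM fits. Ehmt2 gave -0.0232 with upper-quartile factors, -0.000682 with no filter beyond 1 count, -0.0138 and -0.0144 with the FPKM fits, -0.00663 without OxPAPC 23 and vehicle 15 and -0.000279 with the long-transcript covariate.

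No paired analysis was run because the groups share no replicate number and the labels do not pair libraries across groups. A pairing of libraries by adjacent title numbers was not tested. Among tested members, Jmjd7 and Jmjd8 had the fewest counts, with 385 and 414 over all libraries.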
